A study of Mus musculus with 18 samples.

Results

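The transcripts described here are those of 10 genes of the NF-kB system, out of 20207 genes listed in every library. They were chosen by name, with earlier results of these data known. Nfkb1, Nfkb2, Rela and Relb encode subunits of the transcription factor. Nfkbia, Nfkbie and Nfkbiz encode proteins of the inhibitor (IkB) family. Tnfaip3, Birc3 and Icam1 are well-known transcriptional targets of the pathway, and the proteins of the first 2 act back on it. All 18 libraries came from NIH3T3 cells, a mouse embryonic fibroblast line, that stably carried DD-GFP, a destabilizing domain of FKBP fused to superfolder GFP, and had been sorted by FACS for high GFP. The ligand Shield-1 (S1), which keeps the domain folded, was present in every group, controls included. The 6 groups of 3 libraries were unstressed control cells (0 min), cells kept at 42°C (heat stress, HS) for 45 or 135 min, and cells given tunicamycin (Tu), an inhibitor of N-linked glycosylation that provokes the unfolded protein response of the endoplasmic reticulum (ER), for 45, 135 or 405 min. The stressed groups were compared with the control, and with each other, to ask how these stresses change transcript levels.

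NF-kB subunits work as dimers that IkB proteins hold in the cytoplasm of resting cells. In the canonical route, IkB kinase marks the IkB protein for destruction and dimers such as RelA with p50 (the product of Nfkb1) enter the nucleus. In the noncanonical route, the Nfkb2 product p100 is processed to p52, which pairs with RelB. The genes for IkBα (Nfkbia), A20 (Tnfaip3), p100 and RelB are themselves targets of NF-kB, so the pathway builds its own brakes. Transcript levels, as measured here, do not report the location or processing of these proteins.

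The libraries held 33415592 to 66478268 reads on genes. Levels of a gene in different libraries are given as CPM (reads of a gene relative to all reads on genes), scaled over the 18 libraries by the trimmed mean of M values (TMM). Hspa1b, a heat-inducible HSP70, stood at 5.47 to 6.3 CPM in the control, at 46 to 280 CPM after 45 min of HS and at 263 to 1210 CPM after 135 min. Hspa5, the ER chaperone BiP, was at 656 to 735 CPM in the control and at 923 to 955, 333 to 491 and 8800 to 9290 CPM after 45, 135 and 405 min of tunicamycin, so that it lay below the control at 135 min. Under HS it was at 626 to 694 CPM at 45 min and at 1270 to 1420 CPM at 135 min. The fibroblast genes were abundant, with 8 of 8 markers present and a summed level of at least 11500 CPM in each library, whereas the summed levels of the leukocyte, endothelial and epithelial lists did not exceed 18.1, 0.807 and 1.11 CPM. Of the leukocyte list, Emr1 and Ptprc were at or near 0, as were Pecam1 of the endothelial and Epcam of the epithelial list, but Cd68 was at 5.47 to 8.75, Cd14 at 3.96 to 7.41 and Csf1r at 0.935 to 2.96 CPM. Some libraries stood apart in how their read counts followed the GC content of transcripts. The slope, in log2 units per 10 percentage points of GC, was 0.671 and 0.8 in HS 45 min replicates 1 and 2 but -0.27 in replicate 3, and it was 0.855 in HS 135 min replicate 2, 0.44 in Tu 135 min replicate 1 and 0.051 in control replicate 1, against -0.437 and -0.441 in the other control libraries. HS 45 min replicate 3 also had the lowest Hspa1b of the heat-stressed libraries, 46 CPM. In a bulk sample, fewer cells of a kind and less RNA per cell cannot be told apart, and since the labels do not say that replicates were separate cultures, p-values measure the spread between these libraries, which may be technical.

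The promoters of 7 members were found in the RefSeq promoter table (build GRCm38.p6), with 10 windows between them. The 250 bases before each start were searched on both strands for the kappa B consensus, the DNA motif that NF-kB dimers recognise, for the core of the heat shock element (GAANNTTC) and for the cAMP response element (TGACGTCA). A kappa B match was present in 6 of the 10 windows, belonging to 4 of the 7 genes (Nfkb2, Nfkbia, Nfkbie and Tnfaip3), and in 7.25% of all 32851 windows in the table. Rela, Birc3 and Icam1 held no match in this window, and none of the 10 windows held either of the other motifs, which occurred in 6.69% and 1.55% of all windows. The 130 bases before the first-listed start of these 4 genes are shown because they hold the matches nearest to a start, with kappa B matches in capitals.
Nfkb2, chr19:46304607-46304736, plus strand: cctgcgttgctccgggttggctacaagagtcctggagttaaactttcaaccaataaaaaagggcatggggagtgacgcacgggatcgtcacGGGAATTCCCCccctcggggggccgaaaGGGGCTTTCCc
Nfkbia, chr12:55492648-55492777, minus strand: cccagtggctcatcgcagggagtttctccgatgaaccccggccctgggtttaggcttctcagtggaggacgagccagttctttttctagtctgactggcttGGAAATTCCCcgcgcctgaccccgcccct
Nfkbie, chr17:45555570-45555699, plus strand: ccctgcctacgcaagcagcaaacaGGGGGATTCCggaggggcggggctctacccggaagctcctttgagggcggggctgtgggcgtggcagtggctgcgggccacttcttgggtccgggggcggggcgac
Tnfaip3, chr10:19015411-19015540, minus strand: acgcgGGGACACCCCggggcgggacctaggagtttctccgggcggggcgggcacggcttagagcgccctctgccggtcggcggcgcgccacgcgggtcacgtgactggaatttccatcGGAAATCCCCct
Nfkb2 had overlapping matches on both strands between positions -39 and -29 from the start, and a further one at -11 to -2. Nfkbia had its match at -29 to -20, Nfkbie at -106 to -97, and Tnfaip3 at -125 to -116 and -12 to -3. A match of letters is a description of the sequence and not evidence of a bound site.

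Of the 10 members, 9 had at least 1 read in every library and were tested, and Icam1 was not. Genes with a Benjamini-Hochberg adjusted p under 0.05 in the edgeR quasi-likelihood test, over 12731 genes, are said to have risen or fallen. After 405 min of tunicamycin, 4 of the 9 members rose (Relb, Nfkbie, Nfkb2 and Rela) and 1 fell (Tnfaip3), beside 46.8% of all genes tested that changed in either direction. After 45 min of tunicamycin, 3 of the 9 rose (Nfkbie, Relb and Tnfaip3) and none fell, beside 6.17% of all genes. After 135 min of tunicamycin, none of the 9 passed the test, beside 0.134% of all genes, although 2 of the 9 members and 2369 of all genes had an unadjusted p under 0.05. After 135 min of HS, 1 of the 9 rose (Nfkbie), beside 7.39% of all genes, and after 45 min of HS none passed, as was so of all genes (0.0%), although 5 of the 9 members and 2480 of all genes had an unadjusted p under 0.05. The edgeR exact test and the DESeq2 Wald test also gave 0 members at HS 45 min, beside 290 and 451 of all genes, and at Tu 135 min, beside 547 and 665 of all genes. The median log2 fold change of the 9 members was 0.53, 0.57, 0.55, 0.4 and 0.37 at HS 45, HS 135, Tu 45, Tu 135 and Tu 405 min, where the median of all genes lay between -0.03 and 0. The 5 comparisons share their control libraries. Levels of other genes moved with the groups as well. The summed level of the 8 fibroblast markers was 21900 to 28300 CPM in the control, 11500 to 13300 CPM at Tu 405 min and 28300 to 59000 CPM at HS 45 min, and that of the 7 leukocyte markers was 15.5 to 17.6, 11.8 to 12.7 and 11.3 to 15.7 CPM, with Emr1 at 0 in each library. The part of these shifts in the members' changes was not tested.

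**Figure D1:**
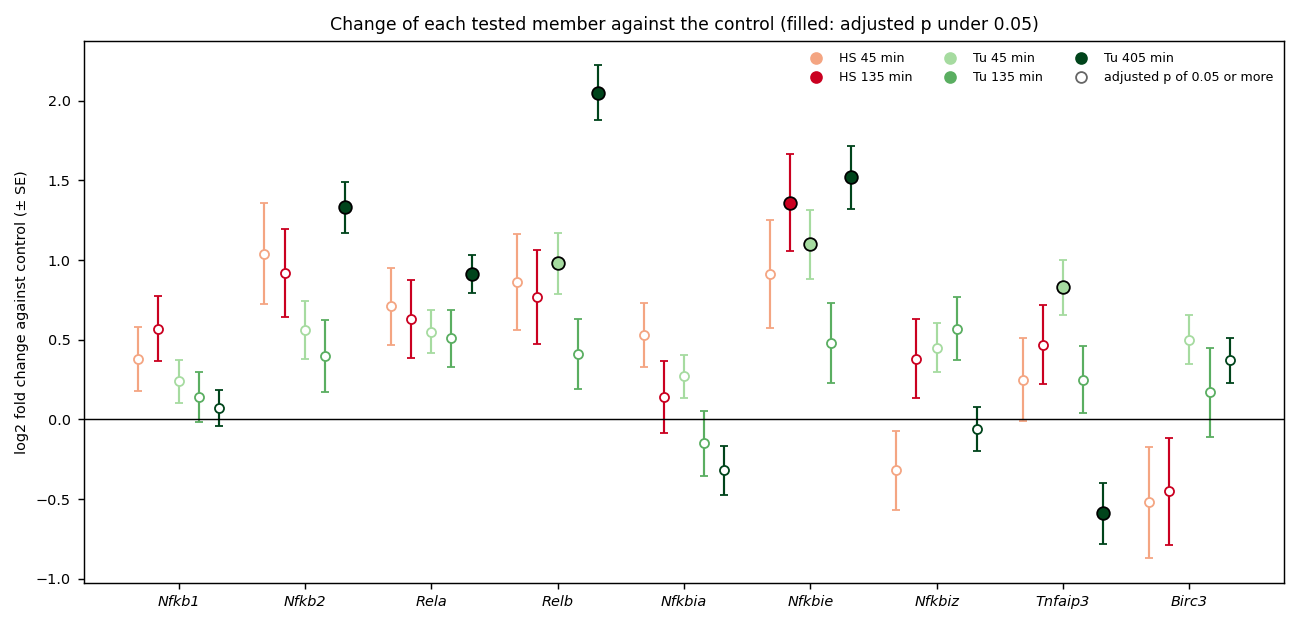
Log2 fold change against the control for the 9 tested members (y axis, ± SE) in the 5 stressed groups (colours), with large filled points where the adjusted p was under 0.05 and open points elsewhere. Relb at Tu 405 min stands highest at 2.05, and Tnfaip3 is above 0 at Tu 45 min and below 0 at Tu 405 min.

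The members spanned a wide range of levels per transcript length, read from the deposited RPKM (reads scaled by transcript length and library total). In control cells, Nfkb2 was the highest at 40.8 ± 6.19 RPKM (SD, n = 3), followed by Rela at 34.8 ± 1.77, Nfkbia at 30.1 ± 2.93 and Nfkb1 at 22.1 ± 0.3. Relb stood at 5.64 ± 0.903 RPKM, and Birc3, Tnfaip3, Nfkbiz and Nfkbie lay between 2.76 and 1.23 RPKM. The ranges of Rela and Nfkbia overlapped, as did those of Tnfaip3 and Nfkbiz, and the other neighbours in this order were apart. Icam1, the adhesion molecule ICAM-1, averaged 0.00939 RPKM. After 405 min of tunicamycin, Nfkb2 reached 96.9 ± 6.21 RPKM and Rela 61.6 ± 1.43 RPKM, apart from each other and from all other members. Nfkbia (22.8 ± 2.19), Relb (22 ± 1.62) and Nfkb1 (21.9 ± 2.07) then had overlapping ranges. Tnfaip3, at 1.4 ± 0.287 RPKM, had the lowest mean above Icam1, and its range overlapped that of Nfkbiz (1.59 ± 0.061).

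**Figure D2:**
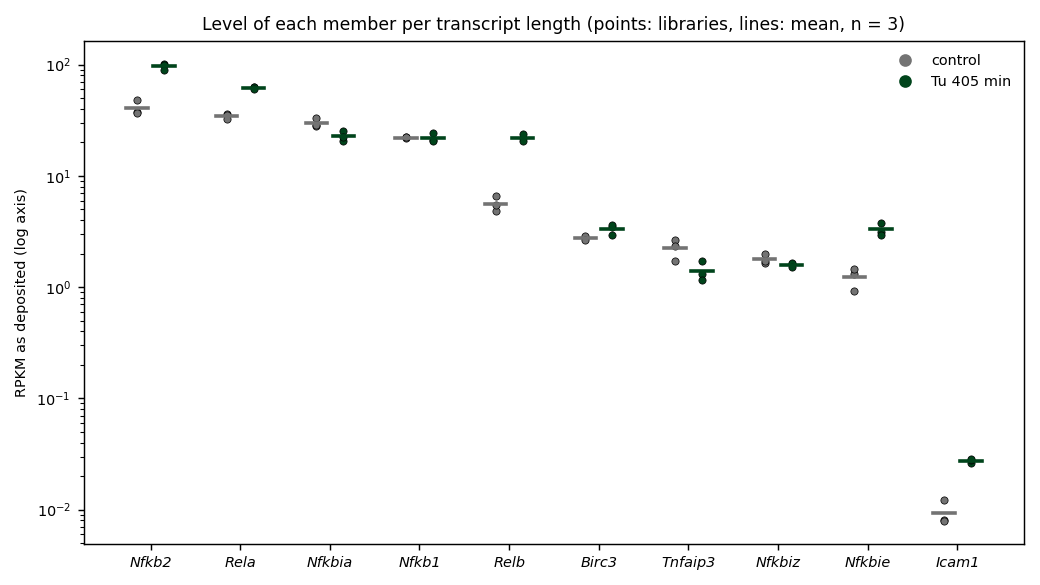
RPKM of the 10 members on a log axis in control (grey) and Tu 405 min (green) libraries, in the order of the control level, with a point for each library and a line at the mean (n = 3). Relb moves from 5.64 to 22 RPKM, to the level of Nfkb1, while Icam1 stays below 0.03 RPKM.

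Among the subunits, Relb (chr7:20191571-20214787, mm9) had the largest estimated change at Tu 45 and Tu 405 min, though not at the other times or under HS. It encodes the partner of p52 in the noncanonical dimer. Its level was 17.8, 12.4 and 13.6 CPM in the control libraries, and 57, 65.2 and 56.1 CPM after 405 min of tunicamycin. The groups did not overlap, and the rise was 4.14-fold (log2 fold change 2.05 ± 0.171 SE, adjusted p = 7.16e-05 by edgeR). After 45 min of tunicamycin, Relb was at 24.2, 27.6 and 33.9 CPM, all above the control, and had risen by 0.98 ± 0.191 on the log2 scale (adjusted p = 0.0297). At 135 min its libraries read 22.9, 16.9 and 17.7 CPM and overlapped the control (0.41 ± 0.22, adjusted p = 0.359).

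Nfkb2 (chr19:46380108-46386580, mm9) encodes p100, both the precursor of p52 and an IkB-like protein in its own right. Its control libraries stood at 185, 137 and 133 CPM. After 405 min of tunicamycin they stood at 385, 390 and 355 CPM, a rise of 2.51-fold (log2 1.33 ± 0.16, adjusted p = 0.000396 by edgeR). At 45 min the values were 186, 214 and 268 CPM, just above the highest control (0.56 ± 0.184, adjusted p = 0.109), and at 135 min they were 259, 173 and 165 CPM and overlapped it (0.4 ± 0.226, adjusted p = 0.38).

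Rela (chr19:5637490-5648130, mm9), which encodes the transactivating subunit p65 of the canonical dimer, read 120, 111 and 101 CPM in the control and 201, 211 and 202 CPM after 405 min of tunicamycin. This rise of 1.88-fold (log2 0.91 ± 0.119, adjusted p = 0.000589 by edgeR) had a lower estimate than those of Relb and Nfkb2, a difference that was not tested. At 45 and 135 min all Rela libraries lay above the control, at 147 to 184 and 137 to 189 CPM, without passing the test (adjusted p = 0.0555 and 0.204). Nfkb1, the gene for p105 and its product p50, did not pass in any of the reported fits. It stood at 104 to 112 CPM in the control and at 105 to 119 CPM at Tu 405 min (log2 0.07 ± 0.113, adjusted p = 0.634).

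**Figure D3:**
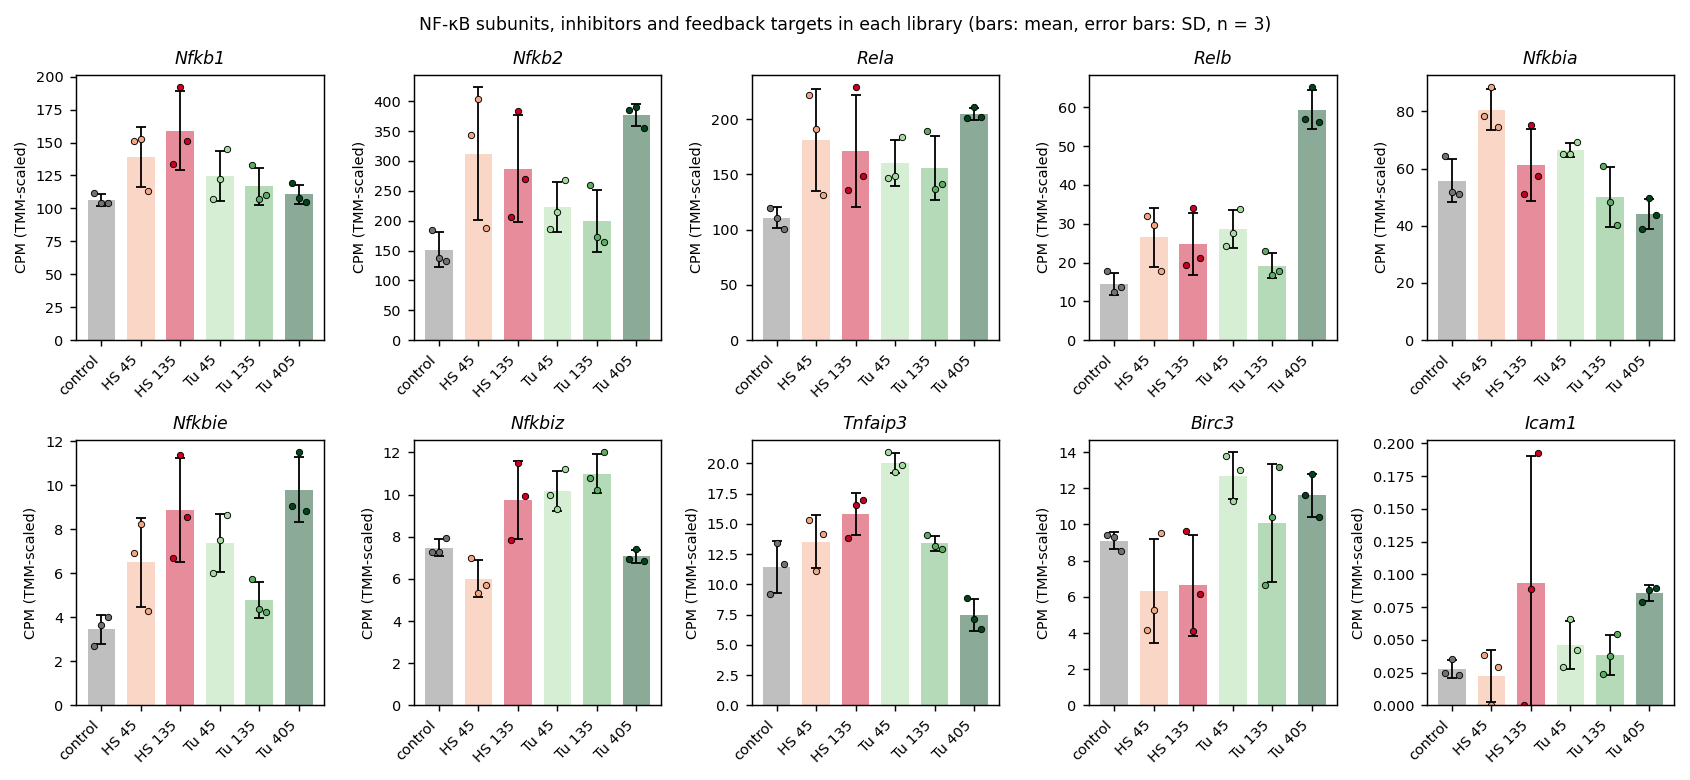
TMM-scaled CPM of each of the 10 members (panels, y axis from 0) in the 6 groups, with a point for each library, a bar at the mean and an error bar of 1 SD (n = 3). Relb, Nfkb2 and Rela stand highest or near their highest at Tu 405 min with little spread, the heat-stressed libraries spread widely, and Icam1 does not reach 0.2 CPM.

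The 3 inhibitor genes are described in turn, and differences between them were not tested. Nfkbie, which encodes IkBε (chr17:45692665-45700117, mm9), was low, with 488 reads over the 3 control libraries, and it rose in 3 of the 5 comparisons. Its levels were 2.71, 3.66 and 4 CPM in the control, 6, 7.53 and 8.64 CPM at Tu 45 min and 9.07, 11.5 and 8.85 CPM at Tu 405 min. Neither stressed group overlapped the control. The rises were 1.1 ± 0.216 (adjusted p = 0.0301) and 1.52 ± 0.198 (adjusted p = 0.000567) on the log2 scale by edgeR. At Tu 135 min, with 5.73, 4.39 and 4.27 CPM, all 3 libraries were above the control but the difference did not pass (0.48 ± 0.25, adjusted p = 0.337).

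Nfkbia (chr12:56590396-56593634, mm9) encodes IkBα, the main fast-acting inhibitor. Its control libraries were at 64.5, 51.7 and 51.3 CPM, and those at Tu 405 min at 38.9, 49.6 and 43.9 CPM. All 3 were below the control, but the difference of -0.32 ± 0.152 did not pass (adjusted p = 0.119 by edgeR). At Tu 45 min Nfkbia stood at 65, 65.1 and 69.3 CPM, above the control by 0.27 ± 0.136 (adjusted p = 0.264). Nfkbiz encodes IkBζ, a nuclear member of the family, and the libraries list it at more than 1 position, so none is given. It read 7.26, 7.27 and 7.94 CPM in the control, 9.97, 9.31 and 11.2 CPM at Tu 45 min, 10.8, 10.2 and 12 CPM at Tu 135 min, and 6.94, 7.41 and 6.86 CPM at Tu 405 min. The 2 earlier groups lay above the control without passing the test (adjusted p = 0.115 and 0.193), and the last overlapped it (adjusted p = 0.74).

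Of the feedback targets, Tnfaip3 (chr10:18720722-18735173, mm9) went both ways. It encodes A20, a ubiquitin-editing enzyme that shuts off signalling upstream of IkB kinase. The control libraries stood at 9.19, 13.4 and 11.7 CPM. After 45 min of tunicamycin they stood at 20.9, 19.3 and 19.9 CPM, a rise of 1.77-fold (log2 0.83 ± 0.173, adjusted p = 0.0373 by edgeR). After 135 min they were at 14.1, 13.2 and 12.9 CPM, which overlapped the control (0.25 ± 0.209, adjusted p = 0.564). After 405 min they were at 8.91, 7.13 and 6.33 CPM, all below the control, and Tnfaip3 had fallen by 0.59 ± 0.193 on the log2 scale (adjusted p = 0.0345).

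Birc3 encodes cIAP2, a ubiquitin ligase of the TNF receptor complex. It was at 8.56 to 9.44 CPM in the control, 11.3 to 13.8 CPM at Tu 45 min, 6.68 to 13.2 CPM at Tu 135 min and 10.4 to 12.8 CPM at Tu 405 min. The groups at 45 and 405 min lay above the control, but no comparison passed (adjusted p = 0.0955 and 0.0636 by edgeR). Icam1 was close to absent, with 1, 2 and 1 reads in the control libraries, 2, 5 and 2 at Tu 45 min, 1, 2 and 2 at Tu 135 min, 5 in each library at Tu 405 min, 2, 0 and 2 at HS 45 min and 0, 4 and 11 at HS 135 min. A count of 0 in these 2 libraries allows up to 3 reads, or 0.0553 and 0.0486 CPM before TMM scaling, and the exact Poisson interval of the highest count, 11 reads, runs from 5.49 to 19.68 (95%, counting error only). No fold change is given, since the control counts are at or below 3 reads.

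The calls at Tu 405 min differed in how far they rested on single libraries. Those of Relb, Nfkb2, Rela and Nfkbie were kept in all 6 fits that left out 1 library, with log2 fold changes of 1.92 to 2.22, 1.22 to 1.51, 0.83 to 0.979 and 1.39 to 1.62. The fall of Tnfaip3 was lost without control replicate 2 (-0.48, adjusted p = 0.115 by edgeR) or 3 (-0.6, adjusted p = 0.0798), and without Tu 405 min replicate 2 (-0.56, adjusted p = 0.118) or 3 (-0.49, adjusted p = 0.136), and it was lost with the replicate number as a block (-0.59, adjusted p = 0.0819). At Tu 45 min, no member passed in 5 of the 6 such fits, where adjusted p ran from 0.0571 to 0.172 for the 3 called members (edgeR). Of all genes, 58 to 264 passed in these 5 fits, against 786 in the reported fit. In the fit without control replicate 1, the control library with the highest GC slope, 7 members and 2499 of all genes passed. Without this library, the log2 fold changes at Tu 45 min were 1.15 for Relb, 0.95 for Nfkbie and 0.69 for Tnfaip3. Over the 6 fits they ran from 0.858 to 1.15, from 0.954 to 1.23 and from 0.686 to 0.955.

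Under heat stress, the members most above the control were again Nfkb2, Relb, Nfkbie and Rela, but the replicates were far apart. At 45 min, Nfkb2 stood at 344, 404 and 188 CPM, against at most 185 CPM in the control (log2 1.04 ± 0.318, adjusted p = 0.227 by edgeR). Rela was at 222, 191 and 131 CPM (0.71 ± 0.243, adjusted p = 0.232), and Relb at 32.1, 29.6 and 17.7 CPM (0.86 ± 0.301, adjusted p = 0.232). In each of them, replicate 3 sat next to the control and the other 2 libraries far above it. Nfkbia was above the control in all 3 libraries, at 78.5, 88.5 and 74.6 CPM (0.53 ± 0.199, adjusted p = 0.241). Nfkbie stood at 6.93, 8.27 and 4.3 CPM (0.91 ± 0.338, adjusted p = 0.239), and Nfkb1 at 151, 153 and 113 CPM (0.38 ± 0.202, adjusted p = 0.291). In both, replicate 3 was again the lowest. Nfkbiz, at 6.99, 5.34 and 5.71 CPM, lay just below the control (-0.32 ± 0.249, adjusted p = 0.423), and Tnfaip3, at 15.3, 11.1 and 14.2 CPM, overlapped it (0.25 ± 0.262, adjusted p = 0.547). Birc3 was at 4.16, 5.25 and 9.55 CPM, so that only replicate 3 lay at the control level (-0.52 ± 0.35, adjusted p = 0.361).

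Replicate 3 of HS 45 min decided these counts. Without it, 7 members passed at HS 45 min, 6 of them higher and Birc3 lower, and 5786 of all genes passed. The log2 fold changes then were 1.3 for Nfkb2 (adjusted p = 0.00325), 0.9 for Rela (0.00544), 1.08 for Relb (0.00692), 1.13 for Nfkbie (0.0107), 0.58 for Nfkbia (0.033), 0.51 for Nfkb1 (0.0288) and -0.95 for Birc3 (0.0132), by edgeR. The HS 45 min libraries with high Nfkb2 and Rela and low Birc3 are also those with steep GC slopes, 0.671 and 0.8, and the transcripts of Rela (59.4% GC), Nfkb2 (59.3%) and Relb (56%) are richer in GC than that of Birc3 (46.6%). With a GC term fitted as an offset, all 3 libraries kept, the values at HS 45 min were 0.36 for Nfkb2, 0.06 for Rela, 0.48 for Relb and 0.51 for Nfkbie. They were 0.42 for Nfkbia, 0.25 for Nfkb1 and -0.28 for Birc3. With this offset 0 members and 0 of all genes passed the threshold. The part of GC content in these differences was not tested.

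**Figure D4:**
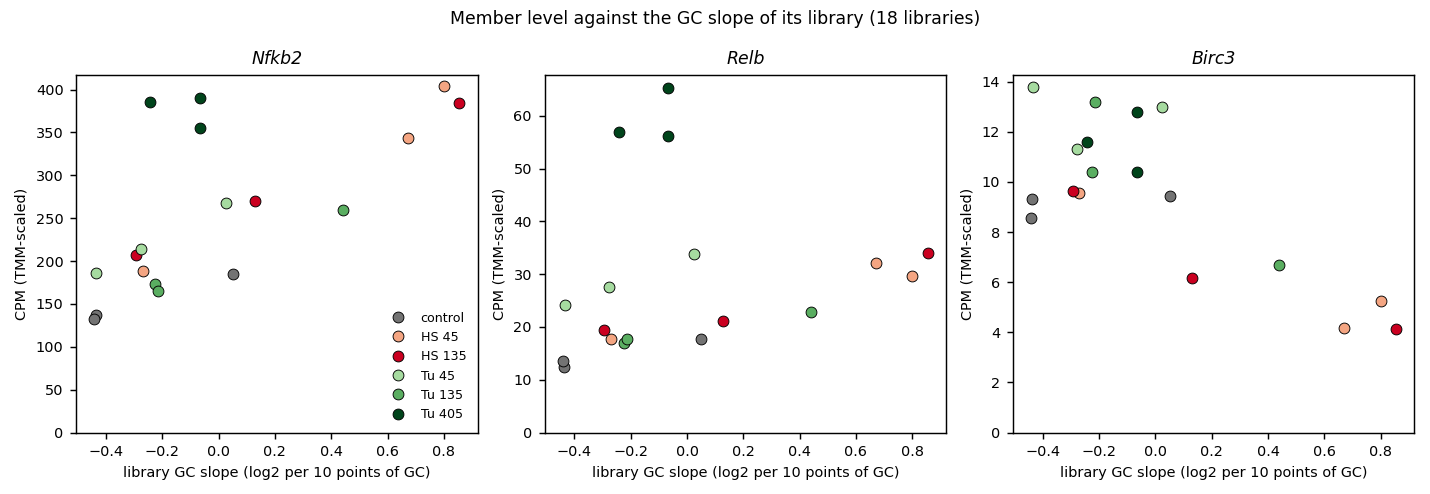
TMM-scaled CPM of Nfkb2, Relb and Birc3 (y axes from 0) against the GC slope of the library (x axis, log2 per 10 points of GC) in the 18 libraries, coloured by group. The 3 heat-stressed libraries at slopes above 0.6 have the highest Nfkb2 of the heat-stressed libraries and Birc3 below 5.3 CPM, and the Tu 405 min libraries, at slopes of -0.243 to -0.066, have Nfkb2 at 355 to 390 CPM and Relb at 56.1 to 65.2 CPM.

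At 135 min of HS, Nfkbie stood at 6.69, 11.4 and 8.56 CPM against at most 4 CPM in the control and rose 2.57-fold (log2 1.36 ± 0.305, adjusted p = 0.0393 by edgeR). The groups did not overlap. The call was lost without control replicate 1 (1.21, adjusted p = 0.0683), 2 (1.4, 0.163) or 3 (1.48, 0.153), without HS 135 min replicate 3 (1.39, 0.164), with the replicate number as a block (1.35, 0.143) and with library totals in place of TMM (1.16, 0.0506). These fits called, in that order, 542, 15, 11, 11, 0 and 924 of all genes, against 941 in the reported fit. Over the 6 fits that left out 1 library, the log2 fold change of Nfkbie ran from 1.17 to 1.53. The call was kept with the GC offset (1.05, adjusted p = 0.0291) and without HS 135 min replicate 1 or 2, the latter being the library with the slope of 0.855. Nfkb2 was at 207, 384 and 270 CPM (0.92 ± 0.276, adjusted p = 0.0774), Rela at 136, 229 and 149 CPM (0.63 ± 0.243, adjusted p = 0.133) and Nfkb1 at 134, 192 and 151 CPM (0.57 ± 0.203, adjusted p = 0.112), all 3 above the control in each library. In these genes replicate 2 was the highest. With the GC offset the values were 0.45 for Nfkb2 (adjusted p = 0.0366 by edgeR), 0.16 for Rela (0.476) and 0.44 for Nfkb1 (0.0433). Nfkb2 and Nfkb1 thus passed in that fit, which called 2585 of all genes. With the block added to the offset they did not (adjusted p = 0.0945 and 0.101), beside 811 of all genes. Tnfaip3, at 13.8 to 17 CPM, was above the control as well (0.47 ± 0.246, adjusted p = 0.235), and Nfkbia, at 51 to 75.4 CPM, overlapped it (0.14 ± 0.226, adjusted p = 0.712). Relb was at 19.4, 34 and 21.1 CPM, above the control (0.77 ± 0.294, adjusted p = 0.133). Nfkbiz, at 7.83, 11.5 and 9.92 CPM, and Birc3, at 9.65, 4.12 and 6.16 CPM, overlapped it (0.38 ± 0.248, adjusted p = 0.328, and -0.45 ± 0.335, adjusted p = 0.384), and Birc3 was lowest in replicate 2.

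The stressed groups were then compared directly, in fits that use no control library. Between 135 and 405 min of tunicamycin, Relb (1.61 ± 0.164, adjusted p = 0.000312), Nfkbie (1.01 ± 0.197, 0.00512) and Nfkb2 (0.9 ± 0.191, 0.00742) rose and Tnfaip3 (-0.87 ± 0.173, 0.00552) and Nfkbiz (-0.66 ± 0.151, 0.00978) fell, by edgeR. These 5 of 9 members stand beside 43.7% of all genes. The call of Nfkbiz was lost without Tu 405 min replicate 3 (-0.65, adjusted p = 0.0546) and with the block (-0.66, adjusted p = 0.0609). The comparison of 405 with 45 min of tunicamycin was added after the opposite signs of Tnfaip3 had been seen. In it, Relb (1.02 ± 0.133), Nfkb2 (0.72 ± 0.128) and Rela (0.31 ± 0.104) rose and Tnfaip3 (-1.47 ± 0.147), Nfkbia (-0.64 ± 0.113) and Nfkbiz (-0.57 ± 0.125) fell, 6 of 9 members beside 52.5% of all genes, with adjusted p from 8.5e-05 for Tnfaip3 to 0.0317 for Rela. The call of Rela was lost without Tu 45 min replicate 1 (0.29, adjusted p = 0.0853) or 2 (0.3, 0.129) and without Tu 405 min replicate 2 (0.29, 0.107) or 3 (0.32, 0.0865). Tnfaip3 was lower at 405 than at 45 min by 2.77-fold, and its 2 groups of libraries, 6.33 to 8.91 and 19.3 to 20.9 CPM, lay far apart.

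In the other 4 direct comparisons no member passed. Between 45 and 135 min of tunicamycin, 0.291% of all genes passed, and 4 members and 2010 of all genes had an unadjusted p under 0.05. These were Tnfaip3 (-0.58 ± 0.131, adjusted p = 0.14), Relb (-0.57 ± 0.183, 0.22), Nfkbie (-0.62 ± 0.207, 0.236) and Nfkbia (-0.41 ± 0.165, 0.291), each lower at 135 min in all 3 libraries. The DESeq2 Wald test called 1 member here and the edgeR exact test 0, beside 617 and 333 of all genes. Between 45 and 135 min of HS, 0.0% of all genes passed, with 1481 of them and 1 member at an unadjusted p under 0.05, Nfkbiz (0.65 ± 0.256, adjusted p = 0.401). Between HS and tunicamycin at 45 min, 0.204% of all genes passed, and 3 members and 3061 of all genes had an unadjusted p under 0.05. Nfkbiz (-0.76 ± 0.204, adjusted p = 0.136), Birc3 (-1.01 ± 0.338, 0.168) and Tnfaip3 (-0.57 ± 0.191, 0.168) were each lower in all 3 heat-stressed libraries. Between the stresses at 135 min, 2.12% of all genes passed and 2543 of them had an unadjusted p under 0.05, among the members only Nfkbie (0.87 ± 0.282, adjusted p = 0.152). The DESeq2 Wald test called 1 member between the stresses at 45 min and 0 at 135 min and between the HS times, and the edgeR exact test called 0 in all 3. Over all genes, the DESeq2 Wald test called 1127, 1256 and 403 in these 3 comparisons and the exact test 754, 933 and 199. Without HS 45 min replicate 3, 4 members passed between the stresses at 45 min, beside 7087 of all genes.

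Ratios of 2 members inside a library do not depend on the scaling between libraries. They are not corrected for GC content, in which paired transcripts differ (Nfkb2 59.3% and Nfkb1 53.1%, Rela 59.4% and Nfkbia 52.9%). These ratios of RPKM were chosen after the members had been seen, and with 3 libraries a side an exact permutation test cannot reach 0.05, so they are given as values. Relb over Rela was 0.162 ± 0.0228 (SD, n = 3) in the control, 0.219 ± 0.014 at Tu 45 min, 0.152 ± 0.00287 at Tu 135 min and 0.357 ± 0.0199 at Tu 405 min, and under HS it was 0.179 and 0.177. Nfkb2 over Nfkb1, the precursor genes of p52 and p50, was 1.84 ± 0.262 in the control and 4.44 ± 0.246 at Tu 405 min. Both ratios were higher in each Tu 45 and Tu 405 min library than in any control library. Nfkb2 over Nfkb1 was so at HS 45 min as well (2.17 to 3.44 against at most 2.14 in the control). Its values there were 2.95, 3.44 and 2.17 in libraries with GC slopes of 0.671, 0.8 and -0.27. In the control they were 2.14, 1.72 and 1.66 at slopes of 0.051, -0.437 and -0.441. The part of GC content in these ratios was not tested. Nfkbia over Rela, an inhibitor to its subunit, was 0.865 ± 0.0613 in the control and 0.718 ± 0.0637, 0.551 ± 0.0578 and 0.369 ± 0.0346 at 45, 135 and 405 min of tunicamycin. Every tunicamycin library and every HS 135 min library (0.566 to 0.662) lay below all control libraries (0.802 to 0.924). The HS 45 min libraries overlapped the control (0.607 to 0.98). Nfkbie over Nfkbia went from 0.0415 ± 0.0124 to 0.145 ± 0.0116 at Tu 405 min and was 0.0938 ± 0.00721 at HS 135 min. IkBα transcripts thus still outnumbered those of IkBε in every group.

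**Figure D5:**
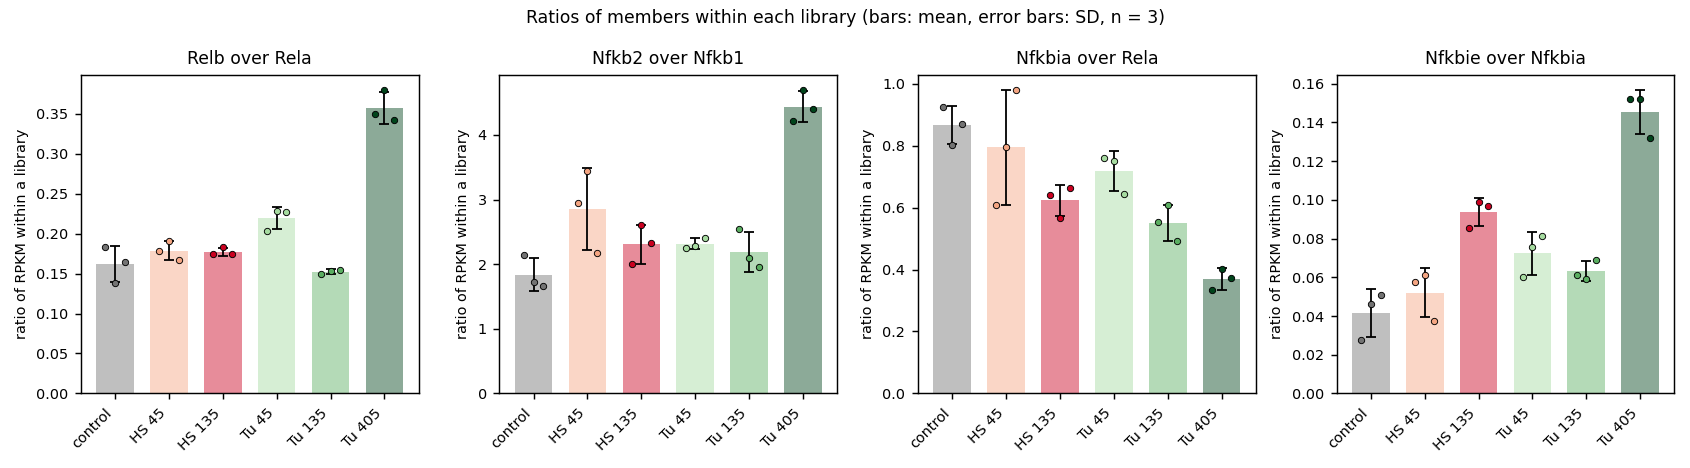
Ratios of the RPKM of 2 members in the same library (4 panels, y axis from 0) in the 6 groups, with a point for each library, a bar at the mean and an error bar of 1 SD (n = 3). Relb over Rela and Nfkb2 over Nfkb1 are highest at Tu 405 min (0.357 and 4.44), and Nfkbia over Rela is lowest there (0.369).

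Of 68 other genes of the pathway, taken from a list of its receptors, adaptors, kinases, regulators and targets, 65 were tested. At Tu 405 min 13 rose and 13 fell, beside 46.8% of all genes that changed, at Tu 45 min 8 rose and 1 fell, beside 6.17%, and at HS 135 min 4 rose and 1 fell, beside 7.39%. At Tu 135 and HS 45 min none passed the quasi-likelihood test, beside 0.134% and 0.0% of all genes. At these last 2, 15 and 21 had an unadjusted p under 0.05, the edgeR exact test called 5 and 5, and the DESeq2 Wald test called 4 and 7, where the counts over all genes were those given above for the members. Their median log2 fold changes were 0.02, 0.13, 0.22, 0.08 and 0.1 in that order, against -0.03 to 0 for all genes. Among the remaining subunit and inhibitor genes at Tu 405 min, 2 of 5 rose. Nfkbib, the gene for IkBβ, went from 32.6 ± 5.93 to 109 ± 17.5 CPM (log2 1.77 ± 0.185, adjusted p = 0.000206 by edgeR), and Nfkbil1 from 21.2 ± 1.12 to 66.5 ± 15.6 CPM (1.67 ± 0.182). Of 9 receptors, 2 fell and none rose. Il1r1, the interleukin 1 receptor, fell by 1.75 ± 0.168 and Tnfrsf1b, TNF receptor 2, by 1.22 ± 0.128 on the log2 scale. Of 23 adaptors and kinases, 4 rose, led by Sharpin of the linear ubiquitin ligase (0.96 ± 0.132) and the adaptor Myd88 (0.73 ± 0.115), and 5 fell, led by Map3k7ip3, the gene for TAB3 (-2.1 ± 0.35), and Map3k7, the gene for its kinase TAK1 (-0.91 ± 0.134). Of 11 negative regulators, 3 rose, with Cyld, a deubiquitinase, at 0.82 ± 0.122 and Tnip2, a partner of A20, at 0.68 ± 0.169, and 1 fell, Pdlim2 (-0.84 ± 0.199).

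Of the 17 tested targets of the pathway, 4 rose and 5 fell at Tu 405 min. Of all genes 46.8% changed, 2965 up and 2995 down. The chemokine Ccl5 went from 0.173 ± 0.199 to 2.69 ± 0.642 CPM and Cxcl10 from 0.185 ± 0.0786 to 1.58 ± 0.241 CPM, both still low. Plau, the gene for urokinase, went from 33.4 ± 1.36 to 2.13 ± 0.167 CPM (log2 -3.95 ± 0.146) and Ptgs2, the gene for cyclooxygenase 2, from 104 ± 34 to 35.9 ± 2.89 CPM (-1.51 ± 0.225). At Tu 45 min, Gadd45b (1.25 ± 0.142) and Cxcl10 (2.41 ± 0.33) led the 3 targets that rose, and Plau (-0.71 ± 0.15) was the 1 that fell. The subunit gene Rel rose then from 4.68 ± 0.601 to 7.96 ± 0.922 CPM (0.78 ± 0.176, adjusted p = 0.0449 by edgeR), with Nfkbil1 (1.03 ± 0.179) and the adaptors Traf5 (0.7 ± 0.145) and Traf2 (0.57 ± 0.13). At HS 135 min, the nuclear IkB family gene Bcl3 rose from 12.4 ± 2.46 to 32.2 ± 9.89 CPM (1.38 ± 0.293), Ccl2 from 66.4 ± 37.4 to 257 ± 39.3 CPM (1.95 ± 0.383) and Cxcl10 to 3.14 ± 0.905 CPM (4.08 ± 0.419), while Cxcl5 fell from 1.3 ± 0.311 to 0.246 ± 0.0536 CPM (-2.39 ± 0.348).

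Across the 18 libraries, the log2 CPM of Nfkb2, Rela, Relb and Nfkbie varied together, with Pearson correlations of 0.82 to 0.94 between each pair. Tnfaip3 went with none of these 4 (-0.42 to -0.03), and Nfkbia with none (-0.08 to 0.21). Birc3 and Nfkb1 were opposed (-0.75). These values describe 18 libraries that share group and GC slope. The genes most like the members, among those with a mean of at least 1 CPM, were Hhipl1 (0.98) and Lonp1 (0.97), a mitochondrial protease, for Relb, Calcoco1 (0.97) and Itpkc (0.96) for Nfkb2, A730011L01Rik and D15Wsu169e (both 0.95) for Rela, 9630058J23Rik (0.96) and Ccrk (0.95) for Nfkb1, and Jdp2 and Gcc1 (both 0.97) for Nfkbie. For Tnfaip3 they were Osbpl3 (0.95) and Slc25a30 (0.91), for Nfkbia Foxc1 (0.91) and 5730507C01Rik (0.86), for Nfkbiz Lif (0.88), the gene for leukemia inhibitory factor, and 1810011O10Rik (0.86), and for Birc3 Trim68 (0.95).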

How the data were processed

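Polyadenylated RNA was sequenced by the authors (Illumina), and reads were assigned to RefSeq genes of mm9 on DNAnexus. The aligner, the counter and their versions are not given in the sources used here, and the study describes 2 library preparations without tying them to samples. The deposited values per gene are an estimated count of reads, not normalized, of which 17.7% to 23.2% of the low values were not whole, and an RPKM value. The authors also deposited a score, the RPKM centred and scaled within a library, and a signal, the RPKM divided by its root mean square, neither of which was used.

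Estimated counts were rounded. Each comparison was fitted to its 6 libraries with edgeR 4.0.16 in R 4.3.3 (TMM, quasi-likelihood test), with p-values adjusted by the Benjamini-Hochberg method over 12731 genes with at least 1 read in every library. The study names edgeR and a threshold of 0.05, but not the test. It states that genes with a count of 0 were removed, without saying in how many libraries. The SE of a log2 fold change came from the fold change and its F statistic. Groups came from the sample labels. Members, gene lists and tests were chosen with earlier results of these data known. All members are named. Of other pathway genes, the 2 largest changes past the threshold per list and direction are named where the groups did not overlap and the higher group averaged at least 50 reads, and for likeness the 2 highest Pearson correlations per member, of which 1 gene is not reported here.

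Alternatives were the edgeR exact test, DESeq2 1.42.0, other filters and scalings, a fit of all 6 groups, a replicate block, a GC offset (mm9 transcripts, 96.7% of genes matched) and leaving out each library. The GC slope is the regression of a library's log2 CPM, relative to the mean of the 18, on transcript GC. The code was tested on simulated data. Same-numbered libraries deviated together in 1 comparison with the control, Tu 135 min (correlations 0.295, 0.251 and 0.207), where the block left the count of members at 0. Promoter sequences are RefSeq's, and entries for Nfkb1, Relb and Nfkbiz were not used here.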

Additional observations from a re-analysis of the deposited data

Results flagged for a closer look

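The change of a member against the control differed between tunicamycin times, by the edgeR quasi-likelihood test of the 2 times against each other. From 135 to 405 min the tested differences on the log2 scale were 1.61 for Relb, 1.01 for Nfkbie, 0.9 for Nfkb2, -0.66 for Nfkbiz and -0.87 for Tnfaip3. The comparison of 45 with 405 min was added after the opposite signs of Tnfaip3 against the control had been seen, so its value for Tnfaip3 restates them. From 45 to 405 min the differences were 1.02 for Relb, 0.72 for Nfkb2, 0.31 for Rela, -0.57 for Nfkbiz, -0.64 for Nfkbia and -1.47 for Tnfaip3.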

How the results depend on the processing

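The number of members called at HS 45 min was 0 in the reported fit, 4 in a fit of all 6 groups and 0 to 7 when 1 library was left out. Over all genes the counts were 0, 1345 and 0 to 5786. At HS 135 min the number of members was 1, and 5 in the fit of all 6 groups, 3 with a GC offset, 2 by the edgeR exact test and by DESeq2, 0 with library totals in place of TMM and 0 to 3 without 1 library. Over all genes the counts, in that order, were 941, 3243, 2585, 1985 and 2159, 924, and 11 to 2467. At Tu 45 min the number of members was 3, and 6 by DESeq2, 5 with library totals and with the GC offset, 1 when a log2 change of 1 or more was also required, and 0 to 7 without 1 library. Over all genes it was 786, and 1843 by DESeq2, 1058 with library totals, 1920 with the GC offset and 58 to 2499 without 1 library. At Tu 405 min the number of members was 5 in the reported fit, beside 5960 of all genes. It was 6 by DESeq2 (6300 of all genes) and with library totals (5825). It was 7 with the GC offset (6698) and 4 to 6 without 1 library (4067 to 7897). Of the 5 in the reported fit, 3 had a log2 change of 1 or more. Summed over the 5 planned direct comparisons the number of member calls was 5, and 8 in the fit of all 6 groups, 9 with the GC offset, 2 of that size and 4 to 9 without 1 library. The other pathway genes called at least once numbered 33, with 16 of that size and 23 to 53 without 1 library. The highest was without HS 45 min replicate 3, where 5786 of all genes passed at HS 45 min. In single comparisons, the edgeR exact test and DESeq2 called 12 and 12 of the other pathway genes at HS 135 min, where the reported fit called 5. These 3 called 1985, 2159 and 941 of all genes. Of the 18 genes most like a member by Pearson's r, 8 were also most like it by Spearman's rho. The causes were not tested.

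With the replicate number as a block, 0 members passed at HS 135 min and at Tu 45 min, 4 at Tu 405 min and 4 between Tu 405 and Tu 135 min, and 0 passed at HS 135 min with the GC offset added. Over all genes the counts, in that order, were 0, 21, 5270, 3750 and 811. Without the block or the offset they were 941 at HS 135 min, 786 at Tu 45 min, 5960 at Tu 405 min and 5566 between Tu 405 and Tu 135 min. The same replicate number was not shown to pair libraries in these comparisons.

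Differences that did not pass in the reported fits turned in sign under some settings. With library totals, the log2 fold change was -0.05 for Nfkbia at HS 135 min, -0.02 for Nfkb1 at Tu 405 min, -0.14 for Nfkb1, -0.12 for Rela and -0.01 for Nfkbia between HS and Tu at 45 min, and -0.06 for Rela between them at 135 min. With the GC offset, alone or with the block, it was 0.05 for Nfkb2, 0.06 for Rela and -0.08 for Birc3 between the HS times, -0.16 for Nfkb2 and -0.43 or -0.44 for Rela between HS and Tu at 45 min, and -0.1 for Rela between them at 135 min. Between HS and Tu at 45 min, Nfkb2 passed in the fit without HS 45 min replicate 3. Without 1 library, the log2 fold change ran at HS 135 min from -0.01 to 0.25 for Nfkbia, at Tu 135 min from -0.07 to 0.41 for Birc3 and at Tu 405 min from -0.01 to 0.12 for Nfkb1. Between the HS times it ran from -0.44 to 0.06 for Nfkb2, -0.37 to 0.04 for Rela, -0.41 to 0.02 for Relb and -0.34 to 0.46 for Birc3. From Tu 45 to 135 min it ran from -0.19 to 0.02 for Nfkb1 and -0.18 to 0.07 for Rela, and from Tu 135 to 405 min from -0.16 to 0 for Nfkb1 and -0.05 to 0.42 for Birc3. Between HS and Tu it ran at 45 min from -0.27 to 0.11 for Relb and -0.4 to 0.04 for Nfkbie, and at 135 min from -0.11 to 0.27 for Rela. Depth limits Icam1, which had at most 11 reads.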
